A study of Homo sapiens with 7 samples.

Results

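INSIG1, AACS and CYB5A are genes of sterol and lipid metabolism, described here by the accessible chromatin regions that have one of them as the nearest gene in the deposited lists of changed regions. The rule pooled the increased and the decreased list and kept every row with one of the 3 gene symbols, which gave 12 of 8815 regions: 10 for INSIG1, 1 for AACS and 1 for CYB5A. All 12 came from the increased list of 8615 regions and 0 from the decreased list of 200. Of the 52675 regions that the authors tested, 16.4% were increased and 0.380% decreased. The 3 genes were chosen by these same measurements, the authors' log2 folds at AACS and CYB5A and the number of listed regions at INSIG1, so the values below describe them and none is tested.

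The cells were Kasumi-1, an established line from acute myeloid leukaemia with the RUNX1-RUNX1T1 fusion. Chromatin accessibility was read by ATAC-seq, in which a transposase cuts open DNA and tags it for sequencing, from 10000 cells per library. One group had 3 libraries of cells with an shRNA against PHF19, a Polycomb-like partner of the histone methyltransferase complex PRC2, delivered by lentivirus and driven by a U6 promoter. The other had 4 libraries of cells with a scrambled shRNA. Both groups were selected with puromycin (2 µg/ml) from 48 hours after the shRNA, for 24 hours or more. Separate cultures are not mentioned for the libraries of either group, so the spread behind the authors' false discovery rate (FDR) may be technical. RNA and protein of PHF19 were not analysed here, so the knockdown itself was not checked, and PHF19 had 3 increased regions.

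Cells sense sterols in the membrane of the endoplasmic reticulum. When sterols are plentiful, INSIG1 holds the escort protein SCAP there, which keeps the transcription factors SREBF1 and SREBF2 from being cut free. INSIG1 is itself a known target of these factors. AACS, acetoacetyl-CoA synthetase, activates the ketone body acetoacetate in the cytosol as a building block for cholesterol and fatty acids. CYB5A, cytochrome b5, passes electrons to fatty acid desaturases, to sterol desaturation and to some cytochrome P450 enzymes.

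Below are the promoter sequences of the 2 members with an increased region over the start site. They are RefSeq windows of build GRCh38.p14, from 250 bases before the annotated start to 50 after it, 5′ to 3′ on the gene's strand. The start in RefSeq was not aligned with the one in the deposited annotation, which uses another build. Capitals mark letters of 3 motifs, on either strand: the GC box GGGCGG, the box named CCAAT after its letters and the E-box CACGTG. A motif on the opposite strand appears as its reverse complement. The INSIG1 window lies at chr7:155297628-155297927 on the plus strand and the CYB5A window at chr18:74291914-74292213 on the minus strand.
INSIG1: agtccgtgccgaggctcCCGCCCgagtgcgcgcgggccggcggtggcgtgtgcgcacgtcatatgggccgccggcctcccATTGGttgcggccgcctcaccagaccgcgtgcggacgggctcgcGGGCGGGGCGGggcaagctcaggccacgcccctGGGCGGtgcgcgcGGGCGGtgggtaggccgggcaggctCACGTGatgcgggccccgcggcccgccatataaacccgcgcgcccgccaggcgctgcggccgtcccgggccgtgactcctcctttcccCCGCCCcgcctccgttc
CYB5A: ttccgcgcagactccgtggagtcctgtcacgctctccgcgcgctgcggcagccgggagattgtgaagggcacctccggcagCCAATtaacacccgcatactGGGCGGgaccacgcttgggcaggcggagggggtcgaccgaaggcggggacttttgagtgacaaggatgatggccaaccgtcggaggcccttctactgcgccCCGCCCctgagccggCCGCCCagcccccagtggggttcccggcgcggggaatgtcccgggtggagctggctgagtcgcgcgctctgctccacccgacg

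The INSIG1 window held 6 GC boxes, of which one pair overlaps by a base, 1 CCAAT box from −170 to −166 and 1 E-box from −55 to −50, counted from the RefSeq start. The CYB5A window held 3 GC boxes and 1 CCAAT box from −169 to −165, and no E-box. At AACS, where no region over the start was listed, the window held 3 GC boxes and neither of the others. Among 22199 promoter windows of protein-coding genes of the same length, 56.3% held a GC box, 34.7% a CCAAT box and 8.34% an E-box. None of the 3 windows held the sterol regulatory element core TCACNCCAC (1.13% of all windows), the RUNX motif TGTGGT (11.3%), the ETS core CCGGAAG (12.8%) or the AP-1 motif TGANTCA (6.15%). These letters describe the windows and are no evidence of binding. GC content was 78.3% at INSIG1, 77.3% at AACS and 69.7% at CYB5A, against a median of 62.3%. In the RefSeq table the non-coding transcript INSIG1-DT starts 220 bp from INSIG1 on the opposite strand, so this promoter faces both ways.

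The region values that follow come from the authors' deposited table. A level is the authors' mean normalised read count of a group, a fold is their log2 fold of knockdown over control, and no value per library was analysed, so no SD, n or overlap of groups can be given for a region. Coordinates are as deposited, read as hg19, and distances run to the transcription start site (TSS), negative upstream. All 12 regions were 401 bp wide, so their levels can be set side by side.

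CYB5A had the largest log2 fold of all 8615 increased regions, at its own start site. The control mean was 6.33 reads, the knockdown mean 43.4 reads and the log2 fold 2.25 (FDR 7.05e-09; chromosome 18, 71959146 to 71959546). The region ran from −295 to 105 bp around the start of a transcript on the minus strand and so covered the proximal promoter and the first transcribed bases. Its control level was low among increased promoter regions. Of the 4038 increased regions within 1 kb of a TSS, 6.69% had a lower control mean, and the median was 23.7 reads. Its knockdown level was not unusual in the same class, where 41.1% of regions lay lower and the median was 49.4 reads. Among increased promoter regions CYB5A thus had the largest fold. It went from the low end of this class in control cells to near its middle in the knockdown. CYB5A was chosen by its fold, which rests on these 2 means, so its low control place follows in part from that choice. Promoters not listed as increased are not among the 4038.

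AACS had the second largest log2 fold of the 8615, at a distal site. The control mean was 4.60 reads, the knockdown mean 34.4 reads and the log2 fold 2.21 (FDR 2.99e-07; chromosome 12, 125534045 to 125534445). The deposited annotation calls the region distal intergenic, −15480 bp from the start of AACS, and in the RefSeq table the protein-coding gene before AACS is BRI3BP. Being nearest to AACS does not show that the region acts on it. Among the 2306 increased intergenic regions, 42.2% had a lower control mean, whereas 88.2% had a lower knockdown mean. Set against this class, the AACS region started at a usual level (median 5.40 reads) and ended above most regions (median 17.0 reads). AACS too was chosen by its fold, so its high knockdown place follows in part from that choice. The reads at the AACS region were near those at CYB5A (6.33 and 43.4). The unlike places of the 2 regions thus reflect the classes they were ranked in. No region at the AACS promoter was listed in either direction, which does not show that it was unchanged.

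**Figure D1:**
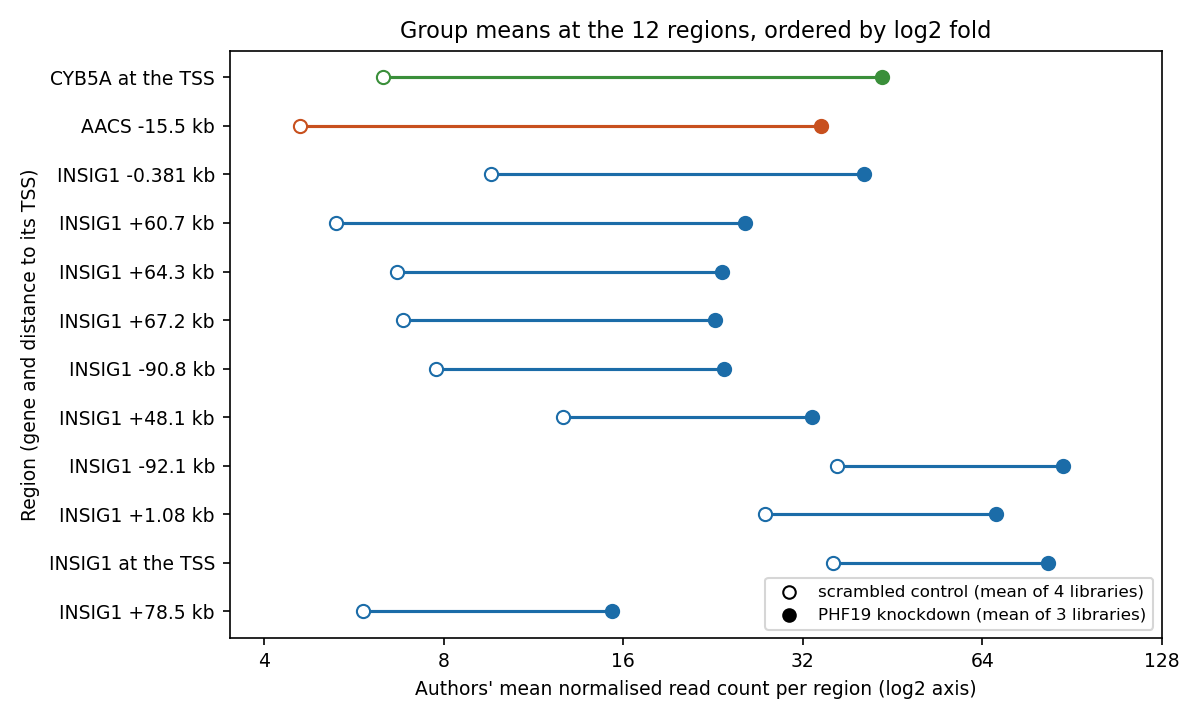
Group means of the 12 regions on a log2 axis, open circles for scrambled control (mean of 4 libraries) and filled circles for PHF19 knockdown (mean of 3), ordered by the authors' log2 fold from 2.25 at the top to 0.96 at the bottom. CYB5A and AACS have the longest lines, while the INSIG1 regions at the TSS and at −92.1 kb have the highest levels in both groups.

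INSIG1 had 10 increased regions, which 9 of 20056 protein-coding genes (0.0449%) reached, whereas 3601 genes, 71.1% of those with any increased region, had exactly 1. The 10 regions spread over 171 kb and fell into 3 blocks: a pair about 90 kb upstream, 3 at the promoter and 5 downstream of the gene. Of them 7 are distal, and being nearest to INSIG1 does not show that these act on it. The log2 folds of the 10 regions ran from 0.96 to 1.73 with a median of 1.16, against a median of 0.97 over all increased regions. INSIG1 lies on chromosome 7, where the median was 1.05 over 1042 regions and where 51.5% of 938 protein-coding genes were nearest to such a region, against 25.2% over all chromosomes. Whether chromosome 7 as a whole has a part in the INSIG1 values was not tested.

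At the INSIG1 promoter, a region just before the start site rose more steeply than the start site itself. The region at −381 bp went from 9.62 reads in control to 40.5 in the knockdown, with a log2 fold of 1.73 (chromosome 7, 155088705 to 155089105). The region over the TSS, which ran from −130 to 270 bp, went from 36.0 to 82.4 reads, with a log2 fold of 1.07 (155089356 to 155089756). Only 250 bp separate them, and the gain in reads was 30.9 at the first and 46.4 over the TSS, so the region with the larger fold had the smaller gain. In the class of regions within 1 kb of a TSS, 13.6% had a lower control mean than the first and 76.6% had a lower one than the second. The third region lay inside the gene, at 1078 bp, with 27.7 reads in control, 67.5 in the knockdown and a log2 fold of 1.13 (155090564 to 155090964).

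The upstream pair had unequal levels and like deposited log2 folds. The differences of the log2 group means were less alike, 1.25 at −92095 bp and 1.60 at −90834 bp. The region at −92095 bp was the most accessible of the 12 in both groups, with 36.6 reads in control and 87.3 in the knockdown (log2 fold 1.14; chromosome 7, 154996991 to 154997391). Its control mean was above that of 98.4% of increased intergenic regions, so this was already open chromatin in control cells, at about the level of the INSIG1 start site. The other region of the pair lay 860 bp away, at −90834 bp, and went from 7.78 to 23.6 reads with a log2 fold of 1.18 (154998252 to 154998652).

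Downstream of INSIG1, 5 regions spanned 30.9 kb, the nearest 35.6 kb past the end of the gene. Control means were low there, from 5.28 to 12.7 reads, and knockdown means ran from 15.3 to 33.2 reads. The region at 60671 bp had the largest fold of the block, 1.68, and went from 5.28 to 25.6 reads (chromosome 7, 155150157 to 155150557). It was followed by the regions at 64255 bp, with 6.69 and 23.4 reads and a log2 fold of 1.35 (155153741 to 155154141), and at 67179 bp, with 6.83 and 22.8 reads and 1.28 (155156665 to 155157065). These 3 lie close together, with gaps of 3.18 and 2.52 kb. The outer regions had the smaller folds of the block: 1.14 at 48076 bp, with 12.7 and 33.2 reads (155137562 to 155137962), and 0.96 at 78543 bp, with 5.86 and 15.3 reads (155168029 to 155168429). The last had an FDR of 0.0250 and was the 1 region of the 12 with an FDR above 0.01 and a log2 fold under 1. Of all regions tested, 7.50% were increased with an FDR of at most 0.01 and 7.09% with a log2 fold of at least 1.

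The order of the 12 regions depends on the measure. In every listed region the deposited log2 fold is smaller in size than the gap between the log2 group means, by 0.70 at AACS, 0.53 at CYB5A and 0.11 at the INSIG1 region at −92095 bp. By that difference AACS came first of the 12 (2.90) and CYB5A followed (2.78), and they ranked 87 and 136 among the increased regions instead of 2 and 1. By the gain in mean reads some INSIG1 regions led: 50.7 reads at −92095 bp, 46.4 at the TSS and 39.8 at 1078 bp. CYB5A gained 37.1 reads and AACS 29.8 reads. The median gain of the 10 INSIG1 regions was 20.4 reads, below CYB5A and AACS. The median gain over all increased regions was 15.9 reads, and among the 12 only the INSIG1 regions at −90834, 67179 and 78543 bp were at or below it (15.8, 15.9 and 9.47 reads).

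**Figure D2:**
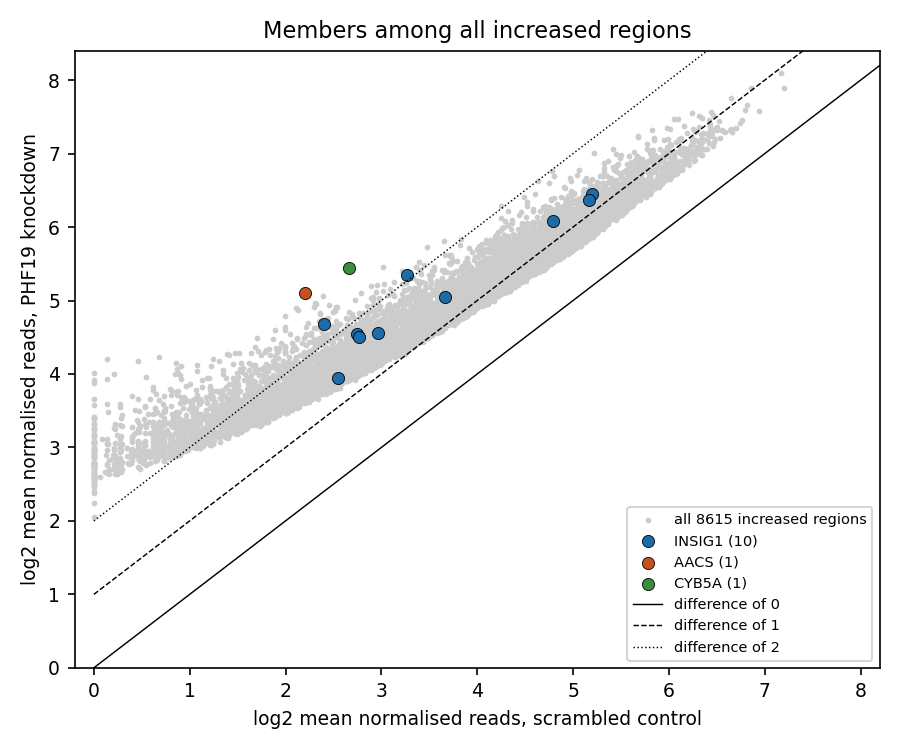
Log2 mean normalised reads in scrambled control (x) and PHF19 knockdown (y) for the 8615 increased regions (grey), with INSIG1, AACS and CYB5A in colour and lines for a difference of 0, 1 and 2. AACS and CYB5A lie at the upper edge of the cloud for their control level, with differences of 2.90 and 2.78, and the INSIG1 regions lie between 1.19 and 2.27.

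Other regions near the 3 genes were also listed as increased. Of all listed regions 97.7% were increased, so nothing is read from the direction of the neighbours. Within 1 Mb of the CYB5A region, 10 other regions were listed, all increased, with log2 folds from 0.60 to 1.26, and the nearest protein-coding neighbour with a promoter region was TIMM21, which encodes a mitochondrial import protein (1.18). Around AACS 5 other regions are reported here, all increased, from 0.71 to 0.99. They included the promoters of DHX37, an RNA helicase (0.81), and SCARB1, the receptor for high-density lipoprotein (0.71). Around INSIG1 9 other regions were listed, all increased, from 0.89 to 1.38, and none of them lay between the outermost INSIG1 regions. They belonged to PAXIP1, its divergent transcript PAXIP1-DT, the serotonin receptor gene HTR5A, RBM33 and SHH, the morphogen Sonic hedgehog. EN2, the next protein-coding gene downstream of INSIG1 in the RefSeq table, had no listed region. The INSIG1 folds (0.96 to 1.73) overlap those of their neighbours. The AACS (2.21) and CYB5A (2.25) folds lie above the neighbours reported here, which follows from the choice of these regions by their folds.

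**Figure D3:**
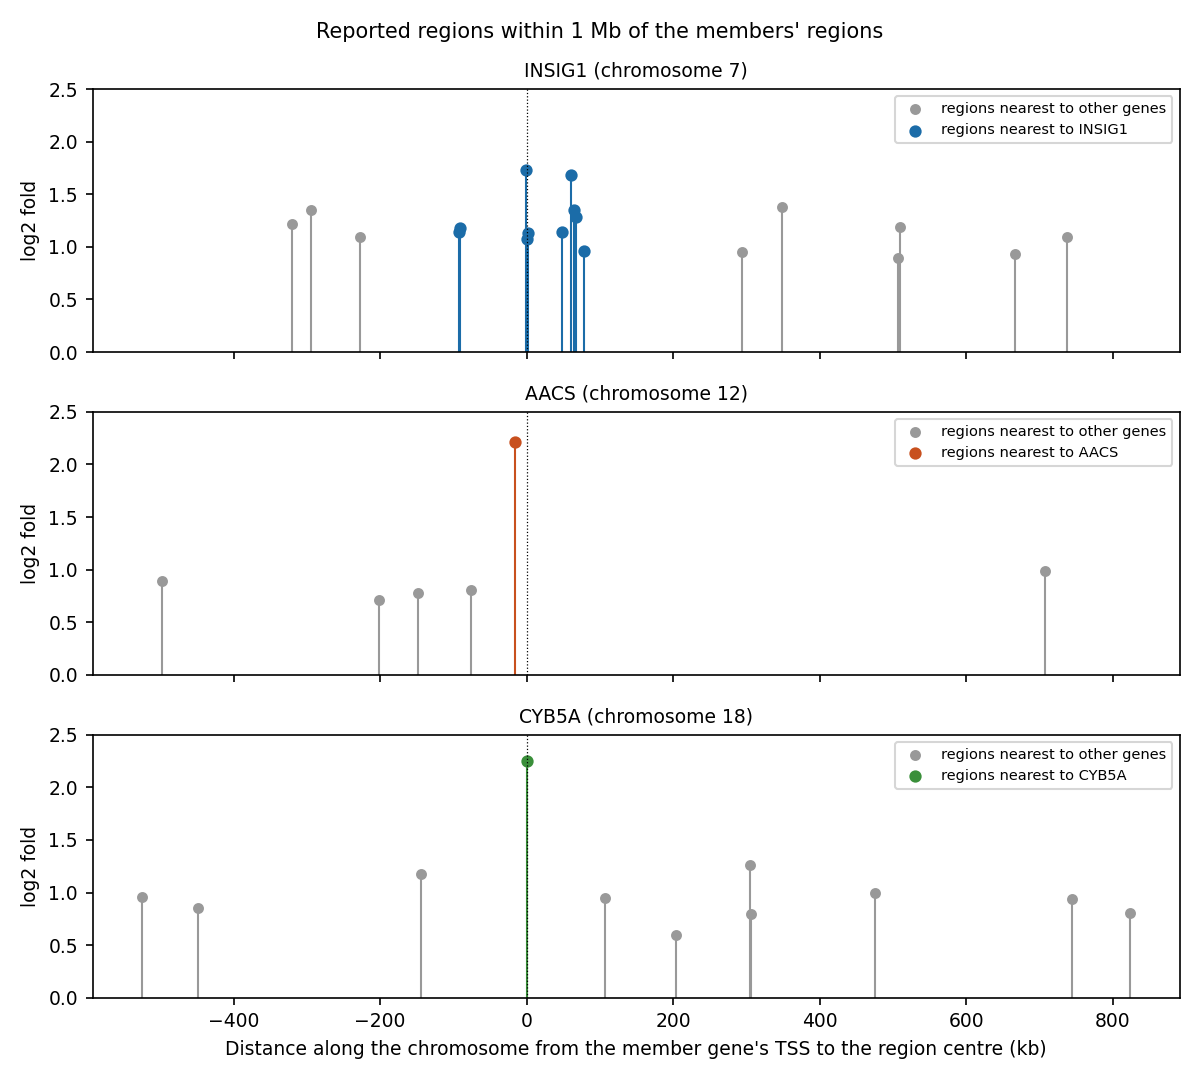
Authors' log2 fold (y) of each region against the distance in kb from the member gene's TSS along the chromosome (x), with the member's regions in colour and the reported regions nearest to other genes in grey. The neighbours of AACS and CYB5A reach 0.99 and 1.26. The single AACS and CYB5A regions stand above them, which follows from their choice by fold. INSIG1 has 10 regions grouped within 171 kb.

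Regions most like the top region of each gene were sought by the distance in the plane of the 2 log2 group means, within the same annotation class. For the INSIG1 region at −381 bp these were promoter regions of FSCN3 (distance 0.07), GALNT7 (0.08) and GMPS (0.15) among 3376 genes. For AACS they were intergenic regions whose nearest genes are HS3ST1 (0.17), EOMES (0.32) and FRG1 (0.38) among 1277 genes, and for CYB5A promoter regions of EEF1A1 (0.47), TRIM24 (0.51) and HNRNPA2B1 (0.53). CYB5A had the most distant nearest match of the 3, but it was chosen by its large fold between these same groups. The likeness rests on 2 group means a region.

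The wider pathways were read from 6 lists of 76 genes, members included. Of these, 26 genes (34.2%) had an increased region and 3 a decreased one, against 25.2% and 0.818% of all protein-coding genes, and 20 had an increased promoter region, against 17.5% of all. Without INSIG1, AACS and CYB5A, 23 of 73 genes (31.5%) had an increased region and 18 of 73 an increased promoter region. The median of each gene's largest log2 fold was 0.94 in these 23 and 0.97 over all protein-coding genes with an increased region. With a log2 fold of at least 1, 7 of these 73 genes were left (9.59%), against 11.3% of all protein-coding genes, and with an FDR of at most 0.01, 10 (13.7%), against 13.9%. For any increased region, the share above the background at the deposited threshold was thus not seen at either stricter one. Promoter regions alone were not recounted at the stricter thresholds. The lists were chosen with earlier results known, and no test was made of them.

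Sterol sensing had 6 of 12 genes with an increased region, each with one at the promoter, and none with a decreased one. Without INSIG1 the count was 5 of 11, against the 25.2% of protein-coding genes with an increased region and the 17.5% with one at the promoter. INSIG2, the paralogue of INSIG1, went from 30.4 to 82.4 reads at its start site with a log2 fold of 1.28. RNF139, a ubiquitin ligase of the endoplasmic reticulum, had promoter folds of 1.25 and 0.89, and ERLIN2, which takes part in degradation at that membrane, had 0.98 and 0.74. The remaining genes were MBTPS2, the protease that makes the last cut of SREBF1 and SREBF2, and RNF145. Beside INSIG1, only INSIG2 and RNF139 reached a log2 fold of at least 1 (11.3% of all protein-coding genes). Only these 2 and ERLIN2 had a region with an FDR of at most 0.01 (13.9% of all). SCAP, SREBF1 and SREBF2 had no listed region. INSIG1, chosen by its number of listed regions, was the gene of this list with the largest fold and with regions away from its promoter.

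Among cholesterol synthesis enzymes 5 of 20 had an increased region, near the background share, and 1 a decreased one, against 0.818% of all protein-coding genes. CYP51A1, lanosterol demethylase, rose at its start site by a log2 fold of 1.23, from 34.6 to 91.7 reads. A second promoter region of CYP51A1 rose by 0.78, and the gene lies on chromosome 7 like INSIG1. MSMO1, a sterol oxidase of the same route, rose by 1.13 at its promoter, from 55.8 to 131 reads. HMGCS1, which makes the precursor of mevalonate, rose by 1.01 in an intron and by 0.82 at an intergenic region. MVK, mevalonate kinase, had a decreased region 43.1 kb from its TSS (log2 fold −0.84), where the knockdown mean lay at the floor of 1 read and the control mean was 6.27 reads. In sterol uptake, transport and efflux 4 of 11 genes (36.4%, against 25.2%) were increased and none decreased (0.818% of all), all by log2 folds of at most 0.95: MYLIP, a ligase that limits sterol uptake (0.95), ABCA1, the cholesterol exporter (0.94, intergenic), NPC2 and NR1H2 (both 0.65).

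Ketone body enzymes had 3 of 7 genes with an increased region, and 2 of 6 (33.3%) without AACS, against 25.2% of all. Beside AACS, these were OXCT1 and BDH1. OXCT1, the mitochondrial enzyme of ketone use, had 0.97 at its promoter and 0.93 in an intron. BDH1, which interconverts the ketone bodies, had an increased (0.92) and a decreased intergenic region (−0.86). It was the 1 gene of this list with a decreased region, against 0.818% of all protein-coding genes. The decreased BDH1 region had 5.47 reads in control and the floor of 1 in the knockdown. In fatty acid synthesis, elongation and desaturation 5 of 18 genes (27.8%) were increased, near the background of 25.2%. ME1, malic enzyme, had 2 upstream regions (1.32 and 1.30), ELOVL6, a fatty acid elongase, 3 regions (1.07, 1.07 and 0.78), and FASN, fatty acid synthase, a promoter region (0.92). ELOVL5, another elongase, had 0.77 at its promoter and a decreased region 10.1 kb upstream (−1.13), again at the floor in the knockdown. No other gene of this list had a decreased region (0.818% of all protein-coding genes). SCD and the FADS genes, which encode fatty acid desaturases, had no listed region.

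Of cytochrome b5 and its electron donors, 3 of 8 genes had an increased region, each at the promoter. Without CYB5A the count was 2 of 7 (28.6%), near the background of 25.2%. POR, the donor of cytochrome P450 enzymes, had a log2 fold of 0.84, from 8.45 to 18.5 reads, and CYB5R4, a cytochrome b5 reductase, 0.70, from 37.4 to 64.7 reads. CYB5A exceeded both by over 1 on the log2 scale, but it was chosen by its fold. Its paralogue CYB5B and the reductase CYB5R3 had no listed region.

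**Figure D4:**
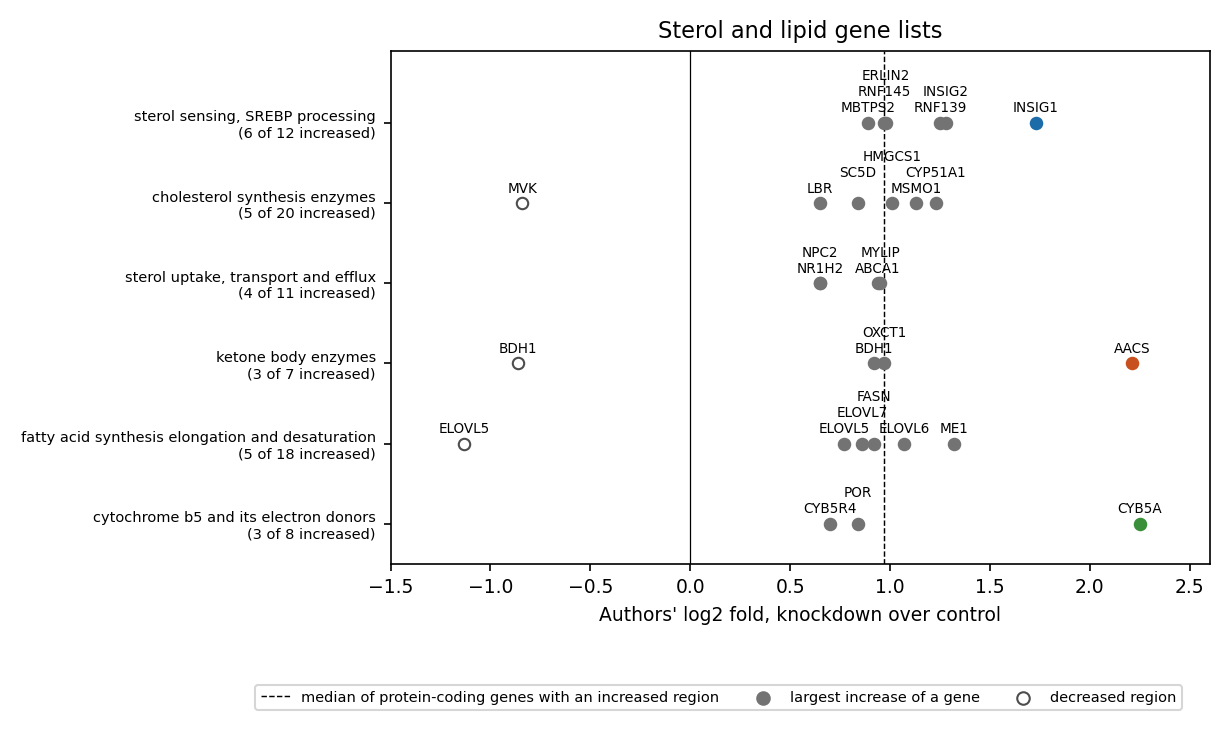
Largest log2 fold of each gene with an increased region (filled) and log2 fold of decreased regions (open), by gene list, with the count increased beside each list's name and a dashed line at 0.97, the median over protein-coding genes with an increased region. Among the other genes of the lists ME1 is the highest at 1.32. INSIG1, AACS and CYB5A (coloured) lie above it, which for AACS and CYB5A follows from their choice by fold.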

How the data were processed

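Of 7 ATAC-seq libraries (4 scrambled control, 3 PHF19 knockdown), the authors deposited lists of increased and decreased regions. Per the file headers, these give log2 mean normalised read counts over all libraries and per group (KP, read as knockdown, and KC, read as control), a log2 fold, a p-value and an FDR, all computed by the authors. The overall mean weighs KP by 0.429, as 3 of 7 libraries would. Per the submitters' processing notes, the tools were MACS2 2.2.6, deepTools 1.5.12, Bowtie2 2.4.1 and Picard 2.2.4, without roles. For the comparison tool, normalisation, transposase read shift and peak merging no statement is given in the sources used here, and the balance of increases and decreases can depend on the normalisation. Depth per library is unknown.

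The notes name hg38, but deposited gene starts equalled those of GRCh38 for 0.137% of matched regions and 0 of the 3 genes, so coordinates are read as hg19. RefSeq (GRCh38.p14) gave names, gene order and promoter sequences, and 99.7% of regions matched by gene ID. The number tested, 52675, is the one at which FDR, p-value and rank fit best (whole ranks within 0.003 for 60.9% of regions with a p-value above 1e-4), a step tested on simulated data. Means were turned back from log2 (Python 3.11.15, pandas 2.3.3, numpy 2.4.6, matplotlib 3.10.9). Named genes were the members, up to 3 genes per list with the largest folds, genes with listed regions within 1 Mb, the 3 most alike per member and PHF19, and other list genes were named after their values were seen. Some list and neighbouring genes are not reported here and enter no count of the lists or neighbours. Members and lists were chosen with earlier results of these data known.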

Additional observations from a re-analysis of the deposited data

How the results depend on the processing

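Of 34 values recomputed under alternatives, 25 stayed within 1.5 times the count or, for folds, within the spread of the INSIG1 regions or equal to the value reported, 9 moved and 0 reversed. AACS and CYB5A have 1 region each and no spread, so any change of their fold was counted as moved. Many of their other values were bound to stay, because a single region chosen by its large fold passes the stricter thresholds and cannot be merged. The tally is therefore no measure of robustness. Counting only regions within 3 kb of a TSS left 4 of the 12 regions, with 3 at INSIG1 and 0 at AACS. Of the 26 list genes, 13 were left at an FDR of at most 0.01 and 10 at a log2 fold of at least 1. With the difference of the log2 group means in place of the deposited fold, the median became 1.49 at INSIG1, and the value 2.90 at AACS and 2.78 at CYB5A. Merging regions with gaps of at most 1 kb gave 9 regions in all and 7 at INSIG1. No paired analysis was possible because the deposited columns are group means without replicate numbers, and for the same reason no replicate was left out. Depth could not be set beside any region.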
